A study of Homo sapiens with 18 samples.

Results

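The comparison described here sets D458 cells that carried EYA2 hairpin 7 against D458 cells that carried a non-targeting hairpin. It rests on 6 of the 18 libraries of the study: 3 of hairpin 7 and 3 of control, chosen by the line and hairpin in their labels. Libraries were paired by the run number (7, 9 or 10) at the end of each column name. Calls come from a model of the groups that does not use these pairs, unless a replicate block is named. Of the 25369 genes in the count table, 14850 had enough reads to be tested, and all of these are described. D458 is an established line of Group 3 medulloblastoma, a childhood tumour of the cerebellum. Cells of every group, controls included, were transduced with a vector that carries a short hairpin RNA, puromycin resistance and the fluorescent protein zsGreen. Selection with 1 µg/mL puromycin lasted 48 h, the brightest 10% by zsGreen were sorted, and poly(A) RNA was extracted after a further 24 h. The other groups were D458 with hairpin 8, and a second line, D425, with its own control and hairpins 6 and 8. Replicates are numbered in the labels, which do not say whether they were separate transductions, so p values measure the spread between these libraries.

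EYA2 belongs to the EYA family, proteins that act as coactivators for homeobox transcription factors of the sine oculis group and that also carry a tyrosine phosphatase activity. Together with those factors and DACH proteins they form a network known from the development of the eye and other organs. Group 3 medulloblastoma is known for high MYC and for a set of retinal and photoreceptor genes, among them OTX2 and CRX, that normal cerebellum hardly uses.

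The 6 libraries held 21260369 to 25349911 counts, and reads fell on 16881 to 17537 genes with hairpin 7 and on 16221 to 16675 genes in control. The line's label was checked on 15 Group 3 genes, of which 12 were tested: their summed level was 6340 to 6870 CPM in control and 5690 to 6550 CPM with hairpin 7, and MYC and OTX2 led it. Markers of other cells were summed over each list. Microglial markers reached at most 9.04 CPM, endothelial markers 3.74 CPM and lymphocyte markers 2.55 CPM. Astrocyte markers were at 176 to 233 CPM in control and 163 to 192 CPM with hairpin 7, and oligodendrocyte markers at 106 to 123 and 103 to 115 CPM. Fibroblast markers are described with the matrix genes. CPM here is the count relative to its library's total after TMM scaling.

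EYA2 itself was read first. It stood at 73.7, 67.5 and 69.8 CPM in the control libraries and at 47.5, 51.9 and 45.1 CPM in the hairpin 7 libraries of runs 7, 9 and 10. Every hairpin 7 library lay below every control, and the mean was 68.5% of the control mean. The log2 change of -0.55 ± 0.26 (standard error) did not pass in the model of all 18 libraries (edgeR quasi-likelihood test, Benjamini-Hochberg adjusted p = 0.137, 95% interval -1.10 to 0.01). It passed with a replicate block, that is, when libraries were compared within their run (adjusted p = 0.00692). Without the block it also passed in the 9 D458 libraries alone (adjusted p = 0.0082) and in the 6 libraries alone (adjusted p = 0.0037).

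EYA1, another coactivator of the family, averaged 27.8 ± 1.45 CPM (SD, n = 3) in control and 40.05 ± 2.76 CPM with hairpin 7. Its log2 change of 0.53 ± 0.19 missed the threshold (adjusted p = 0.058) and passed with the replicate block (adjusted p = 0.0014) and in DESeq2 (adjusted p = 4.3e-04). EYA3 went from 52.0 ± 6.93 to 42.6 ± 3.83 CPM, which the block called (adjusted p = 0.016) and the model without it did not (adjusted p = 0.078). The partners moved little: SIX3 (log2 0.37 ± 0.11, adjusted p = 0.024) and SIX5 (0.28 ± 0.10, adjusted p = 0.046), both homeobox factors, were the 2 of 10 tested members of the list of EYA2 and its network that rose, against 22.6% of all tested genes called in either direction. Both calls ended when control replicate 1 was left out (adjusted p up to 0.109 and 0.361 over all alternatives). SIX2, SIX4 and DACH1 had log2 changes of 0.12, 0.03 and 0.09, none of them called, and DACH2 had 1 count in control and 6 with hairpin 7.

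Of MYC, OTX2, CRX, NRL and MYCN, only CRX was called in the model without the block. MYC, the oncogene that marks this tumour group, averaged 4048 ± 50.5 CPM in control and 3417 ± 260.0 CPM with hairpin 7, a log2 change of -0.24 ± 0.10 with an adjusted p of 0.076, called with the block (adjusted p = 0.0084). OTX2, the homeobox factor of retina and hindbrain, stayed within its replicate spread at 2055 ± 249 against 2120 ± 254 CPM (log2 0.04 ± 0.12). CRX, the photoreceptor homeobox factor, rose 2.17-fold: it was at 24.5, 20.4 and 18.2 CPM in control and at 56.5, 40.1 and 40.5 CPM with hairpin 7 (adjusted p = 0.00094). NRL, a leucine zipper factor of rods, was at 49.1, 18.4 and 18.1 CPM against 27.5, 16.1 and 19.8 CPM, so that its mean difference (log2 -0.43 ± 0.33) rested on 1 control library. MYCN had 1 count in control and 9 with hairpin 7. Around MYC, MXD4, a repressor that competes with it for its partner MAX, rose from 75.4 ± 2.45 to 134 ± 30.8 CPM (log2 0.83 ± 0.17, adjusted p = 0.0043). In the MYC network 3 of 12 tested genes were called (25%), near the 22.6% of all genes.

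**Figure D1:**
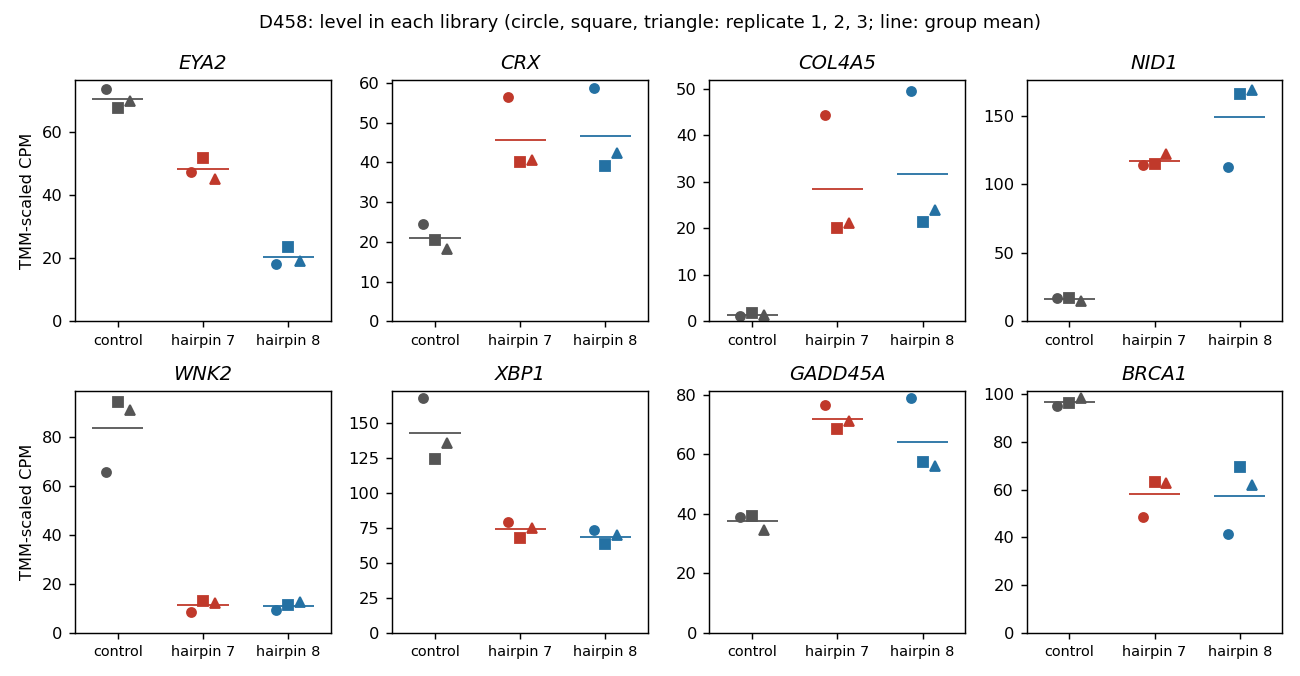
Levels in TMM-scaled CPM (vertical axis) of 8 genes in the 9 D458 libraries, by group (horizontal axis); points are libraries, with 1 symbol per replicate, and lines are group means. EYA2 lay at 45.1 to 51.9 CPM with hairpin 7, between control and hairpin 8, whereas for CRX, WNK2 and XBP1 the hairpin 7 and hairpin 8 points overlap.

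While EYA2 was at 68.5% of its control level, 3357 of the 14850 genes (22.6%) were called at an adjusted p under 0.05 in hairpin 7 against control. Of these, 1715 were higher (11.5%) and 1642 lower (11.1%). The rises were larger than the falls: the median log2 change was 0.95 among the higher genes and -0.41 among the lower ones, and 809 rose at least 2-fold while 154 fell as far. The higher genes also started from lower levels, with 423 (24.7%) of them under 1 CPM in control against 28 (1.71%) of the lower genes. Among 9555 genes of known position averaging at least 8 CPM, 9.5% were higher and 15.2% lower, with a median log2 change of -0.07. With the replicate block 5937 genes were called (40.0%), 2969 higher (20.0%) and 2968 lower (20.0%).

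The direction was shared by the runs. All 3 run pairs moved the same way for 1709 of the 1715 higher and 1638 of the 1642 lower genes, while 64.8% of all tested genes did so in one direction or the other. The size was not shared: the median absolute log2 difference was 0.36 in run pair 7, which carries an earlier date in the labels, and 0.23 and 0.25 in pairs 9 and 10. In 60.2% of the higher and 75.8% of the lower genes, run pair 7 held the largest change. With replicate 1 of all D458 groups left out, so that the D458 libraries were those of runs 9 and 10, of the later date, 1034 genes were higher and 653 lower. The D425 libraries of run 7 stayed in that fit. Leaving out hairpin 7 replicate 1 alone left 766 and 524, and leaving out control replicate 1, 2 or 3 left 1393 and 886, 1170 and 920, or 1086 and 833.

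**Figure D2:**
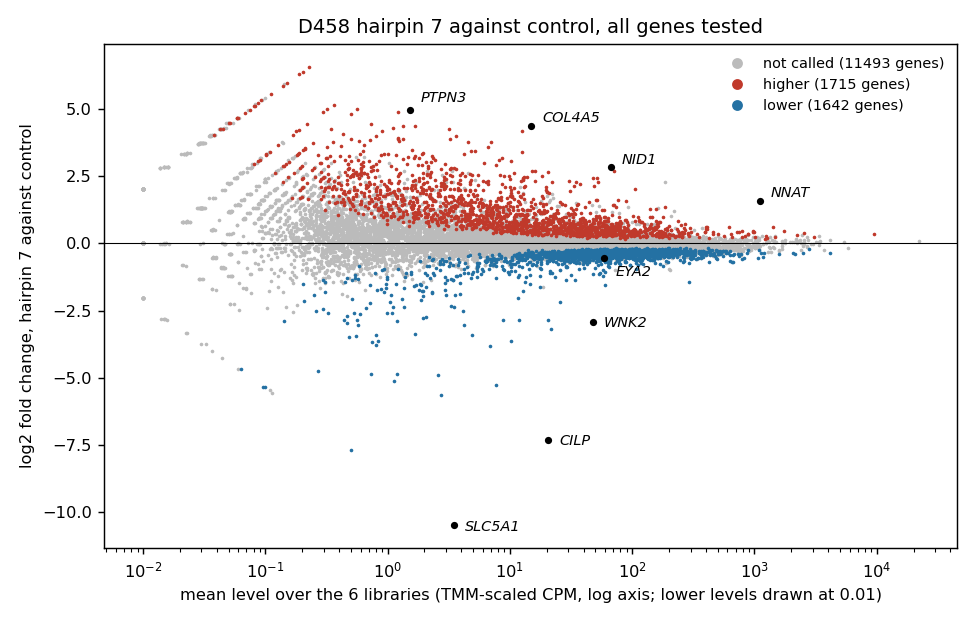
Log2 fold change of hairpin 7 against control (vertical axis) by mean level over the 6 libraries (horizontal axis, log scale) for all 14850 genes tested, 1 point per gene. The 1715 higher genes (red) reach larger changes at low levels, the 1642 lower genes (blue) lie mostly within 1 log2 unit of 0, and EYA2 lies among them without being called.

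The largest rises were in genes close to silent in control. PTPN3, a tyrosine phosphatase of the membrane cytoskeleton, was at 0.133, 0.0977 and 0.0417 CPM in control and at 4.73, 1.97 and 2.19 CPM with hairpin 7 (log2 4.97 ± 0.71, adjusted p = 3.0e-04). COL4A5, a chain of the basement membrane collagen, rose from 1.07, 1.76 and 1.29 CPM to 44.3, 20.03 and 21.2 CPM (log2 4.38 ± 0.40, adjusted p = 7.7e-06). LINC01164, a long non-coding RNA, rose from at most 1.55 CPM to 28.4, 16.6 and 27.1 CPM (log2 4.19 ± 0.36). In none of these did a control library reach a hairpin 7 library, and for PTPN3 and COL4A5 replicate 1 was the highest of the hairpin 7 libraries.

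Other large rises started under 1 CPM in control as well. GLI2, which relays Hedgehog signals to genes, rose from 0.417 ± 0.102 to 6.77 ± 3.83 CPM (SD, n = 3), CREB3L1, a membrane-bound transcription factor, from 0.152 ± 0.0602 to 3.21 ± 2.10 CPM, and ZNF536, a zinc finger factor of neurons, from 0.166 ± 0.136 to 2.497 ± 0.942 CPM. KIF26A, a kinesin relative, reached 6.03 ± 3.24 CPM, WFIKKN2, a secreted protease inhibitor that binds TGF-beta family ligands, 8.53 ± 5.80 CPM, and PLXNA2, a semaphorin receptor, 2.30 ± 0.957 CPM. CRISPLD1, a secreted protein, reached 2.35 ± 1.30 CPM from 0.0731 CPM. Those 7 calls held in every alternative that was run. MEG3, an imprinted non-coding RNA, CASQ2, a calcium store protein, BCAM, a laminin receptor, RCAN2, a calcineurin regulator, and SAG, the arrestin of rods, had log2 changes of 3.79 to 4.35, and each call ended without hairpin 7 replicate 1 (adjusted p up to 0.053, 0.086, 0.081, 0.097 and 0.104 over their alternatives).

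The largest falls led to near absence. SLC5A1, the intestinal sodium and glucose transporter, had 115, 175 and 175 counts in control (5.11, 8.55 and 7.30 CPM) and none in any hairpin 7 library, at least 52.2-fold lower with 3 counts per library as the floor. edgeR called it (adjusted p = 4.6e-04), but in DESeq2 its adjusted p was 0.149. CILP, a cartilage matrix protein, fell from 34.1, 43.2 and 45.6 CPM to 0.165, 0.288 and 0.314 CPM (log2 -7.31 ± 0.48, adjusted p = 2.7e-07). SLC16A3, the lactate exporter of glycolytic cells, fell from 14.3, 15.4 and 15.7 CPM to at most 0.527 CPM (log2 -5.28 ± 0.77, adjusted p = 4.8e-04). Levels of all 3 were separated between the groups in every run.

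ADAMTS2, a procollagen protease, fell from 12.9 ± 5.38 to 0.906 ± 0.394 CPM, and LPHN3, an adhesion receptor of synapses, from 18.9 ± 2.03 to 1.51 ± 0.515 CPM. ST8SIA1, the synthase of the ganglioside GD3, fell from 38.7 ± 6.99 to 4.30 ± 2.15 CPM, and NTSR1, the neurotensin receptor, from 9.03 ± 2.20 to 0.848 ± 0.514 CPM. Among genes under 6 CPM in control, the potassium channel partner DPP10 (log2 -4.91 ± 0.62), the testis bromodomain gene BRDT (-5.11 ± 0.76), the repressor BCL6B (-4.87 ± 0.70), COL21A1, a minor collagen (-3.36 ± 0.57), and MROH2A (-2.88 ± 0.54) fell. DPP10-AS1 also fell (-5.64 ± 0.59), and it and DPP10 lie on opposite strands of one locus, so that their reads may not have been told apart. The call of MROH2A ended without replicate 2 or 3 of all D458 groups (adjusted p up to 0.059).

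The genes with the smallest adjusted p come next, a choice that itself favours little spread within groups. WNK2, a kinase of ion transport, fell from 65.9, 94.7 and 91.1 CPM to 8.35, 13.1 and 12.1 CPM, with log2 differences of -2.97, -2.84 and -2.90 in the 3 run pairs (adjusted p = 2.7e-07). MGST2, a microsomal glutathione transferase, GTSF1, a factor of piRNA silencing, EFCAB4B, a calcium channel regulator, and FOXJ1, the regulator of motile cilia, fell by log2 changes of -3.04 ± 0.21, -2.52 ± 0.18, -2.86 ± 0.25 and -1.42 ± 0.13. GAGE2C, 1 of a family of near-identical cancer/testis antigens whose reads may have been split, fell by 2.86 ± 0.22. MICAL3, a redox enzyme of vesicle transport, fell less, from 141 ± 13.9 to 80.9 ± 4.35 CPM.

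Among the rises with the smallest adjusted p was CHFR, a mitotic checkpoint ubiquitin ligase. It was at 10.6, 9.58 and 7.72 CPM in control and at 27.02, 26.2 and 25.4 CPM with hairpin 7 (log2 1.5 ± 0.12, adjusted p = 1.1e-06). PALD1, a phosphatase-like protein, rose from 0.533 ± 0.118 to 3.73 ± 0.688 CPM, and HDAC9, a class II histone deacetylase, from 5.50 ± 0.907 to 31.0 ± 7.58 CPM. In absolute level the widest rise was that of EEF2, the translation elongation factor, at 8352 ± 612 CPM in control and 10747 ± 1040.5 CPM with hairpin 7, followed by NNAT, an imprinted proteolipid gene, at 554 ± 117 and 1653 ± 410 CPM. GNB2L1, the ribosome scaffold RACK1, rose by 0.39 ± 0.08, FDCSP, a secreted peptide, by 0.61 ± 0.18 and RPL12, a ribosomal protein, by 0.45 ± 0.10 on the log2 scale. The widest falls in level were TUBB (tubulin), ENO1 and PKM (glycolysis), FASN (fatty acid synthase) and EIF4G1 (translation initiation), with log2 changes of -0.22 to -0.40. The calls of EEF2, TUBB, ENO1 and PKM ended without hairpin 7 replicate 1, and that of FDCSP without control replicate 1 (adjusted p up to 0.239 for PKM and 0.130 for the others, over all alternatives).

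Part of the unfolded protein response was lower. When proteins misfold in the endoplasmic reticulum, this response raises its chaperones and folding enzymes, and XBP1 is among its transcription factors. Of 26 tested members of the list, 13 were lower and 0 higher, against 11.1% of all genes lower. The median log2 change was -0.35, against 0.0086 for all genes and -0.07 for those at 8 CPM or more, of which 15.2% were lower. The 3 control libraries held XBP1 at 167, 124 and 136 CPM and the hairpin 7 libraries at 79.0, 67.4 and 75.2 CPM (log2 -0.95 ± 0.12, adjusted p = 1.0e-04). SDF2L1, a chaperone partner, fell from 40.9, 27.4 and 31.4 to 12.8, 13.1 and 15.5 CPM (log2 -1.26 ± 0.15). CALR, a calcium-binding chaperone, fell from 1262 ± 96.7 to 862 ± 6.79 CPM (adjusted p = 2.4e-04), and PDIA4, a disulfide isomerase, from 395 ± 37.7 to 267 ± 10.3 CPM (adjusted p = 2.5e-04). With 1 library left out at a time, 12 or 13 members were called lower.

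The factors of this response recognise the ER stress element, searched here as CCAAT and CCACG with 9 bases of any kind between them, on both strands, in RefSeq promoters (GRCh38.p14) from 250 bases before to 50 after the start. It was found in 27 of 35116 promoters (0.0769%). It lay in a promoter of 7 of the 26 tested members of the list, and 6 of those 7 were lower. Over all tested genes it lay in a promoter of 15, of which 7 were lower and 1 higher. The remaining 19 members, 7 of them lower, had no match or no promoter in the table, which says only that these letters were not in such a window. The stretches that hold the element in the 6 lower genes are shown because these are the listed members with the element that fell. Each is written 5′ to 3′ on the strand of the gene and has the element in capitals (on the opposite strand in CALR and CRELD2, and once on each strand in HSP90B1).
HSPA5 (chr9:125241371-125241429, minus strand): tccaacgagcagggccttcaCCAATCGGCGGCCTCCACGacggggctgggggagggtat
HSP90B1 (chr12:103930196-103930359, plus strand): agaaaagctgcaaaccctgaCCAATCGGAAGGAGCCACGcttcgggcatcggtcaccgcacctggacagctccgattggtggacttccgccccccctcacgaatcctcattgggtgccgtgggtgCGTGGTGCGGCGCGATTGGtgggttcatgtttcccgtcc
XBP1 (chr22:28800583-28800641, minus strand): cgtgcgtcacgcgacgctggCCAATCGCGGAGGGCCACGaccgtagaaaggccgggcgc
CALR (chr19:12938364-12938422, plus strand): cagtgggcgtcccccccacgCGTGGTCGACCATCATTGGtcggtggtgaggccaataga
PDIA6 (chr2:10812833-10812891, minus strand): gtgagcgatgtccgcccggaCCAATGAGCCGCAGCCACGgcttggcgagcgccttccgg
CRELD2 (chr22:49918534-49918592, plus strand): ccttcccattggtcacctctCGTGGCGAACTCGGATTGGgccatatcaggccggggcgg
HSPA5, the main chaperone of the endoplasmic reticulum, was at 1215, 803 and 843 CPM in control and at 690, 606 and 628 CPM with hairpin 7 (log2 -0.57 ± 0.12, adjusted p = 0.0040). HSP90B1, its heat shock protein 90 paralogue, had a log2 change of -0.55 ± 0.09, PDIA6, a disulfide isomerase, -0.37 ± 0.09, and CRELD2, a secreted stress protein, -0.50 ± 0.15. In each of these 4 genes the highest hairpin 7 library lay below the lowest control. The CRELD2 call ended without control replicate 1 (adjusted p up to 0.172). CANX, a membrane chaperone, was the 1 listed member with the element that was not called (log2 -0.02).

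Many genes of DNA replication were lower, though the number of calls depended on 1 library. Of 55 tested members 29 were lower and 0 higher, against 11.1% and 11.5% of all genes, with a median log2 change of -0.44. DUT, which keeps uracil out of DNA, fell from 129, 130 and 138 CPM to 76.1, 89.0 and 94.4 CPM (log2 -0.61 ± 0.10, adjusted p = 8.1e-04). PRIM2, a primase subunit (log2 -0.56 ± 0.13), DSCC1, a clamp loader subunit (-0.64 ± 0.15), and ORC3, of the origin recognition complex (-0.36 ± 0.09), also fell. Without hairpin 7 replicate 1, the lowest hairpin 7 library for DUT, DSCC1 and ORC3, 2 members were called and the median was -0.30; the calls of DSCC1 and ORC3 were among those that ended (adjusted p = 0.052 and 0.058). The block raised the count to 44.

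DNA repair genes behaved alike, with 16 of 39 lower, 1 higher and a median of -0.38. CHEK2, a checkpoint kinase, fell from 59.6, 79.4 and 83.6 CPM to 27.4, 36.2 and 39.8 CPM (log2 -1.11 ± 0.17, adjusted p = 7.0e-04). BRCA1, of homologous recombination, fell from 96.6 ± 1.72 to 58.1 ± 8.45 CPM, UNG, the uracil glycosylase, from 123 ± 12.7 to 70.7 ± 11.1 CPM, and NBN, a sensor of double-strand breaks, by 0.38 ± 0.07 on the log2 scale. The count was 4 without hairpin 7 replicate 1 and 28 with the block. For G2 and mitosis genes the choice mattered most: 5 of 50 were lower in the model of all libraries, a share near the 11.1% of all genes, 40 with the block, and 0 without hairpin 7 replicate 1, with a median log2 change of -0.36 among all 50.

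Factors of ribosome assembly and ribosomal proteins were read as separate lists. Of 56 tested assembly factors 30 were lower, against 11.1% of all genes, and 0 higher (median log2 -0.29, and 43 lower with the block). Among them were UTP6, UTP18 and UTP20, components of the small subunit processome, with log2 changes of -0.39 ± 0.07, -0.61 ± 0.11 and -0.78 ± 0.15. RRS1, a factor of the large subunit, fell from 132, 112 and 104 CPM to 87.7, 86.8 and 85.0 CPM. Without hairpin 7 replicate 1, 9 assembly factors were called. Of 77 ribosomal protein genes 9 were higher and 0 lower, close to the 11.5% of all genes higher. RPL37 rose from 774 ± 9.24 to 991 ± 53.2 CPM (adjusted p = 0.0036). The count of higher ribosomal protein genes went to 24 with the block and to 21 with library totals in place of TMM, and ranged from 3, without hairpin 7 replicate 1, to 20 with 1 library left out.

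Sterol and fatty acid synthesis had the largest share of lower members among the lists described, 21 of 36, with 2 higher and a median of -0.39. Of all genes 11.1% were lower and 11.5% higher. SCD, the stearoyl desaturase, was at 949, 749 and 752 CPM in control and at 458.2, 534 and 524 CPM with hairpin 7 (log2 -0.69 ± 0.13, adjusted p = 0.0019). ACACA, the acetyl-CoA carboxylase, fell from a mean of 316 to 234 CPM (log2 -0.44 ± 0.08), and FDFT1, squalene synthase, from 189 ± 26.2 to 130 ± 10.8 CPM. In each of these 3 genes control replicate 1 was the highest library, and without it 9 members were called.

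Of 30 listed p53 targets 10 were higher, against 11.5% of all genes, and 0 lower, and the median log2 change was 0.75. TP53INP2, which is on the list but is known as a regulator of autophagy, rose from 43.9, 45.5 and 45.1 CPM to 88.1, 75.8 and 73.5 CPM (log2 0.82 ± 0.10, adjusted p = 1.0e-04). Whether p53 acts on TP53INP2 in these cells was not tested. GADD45A, a stress protein of growth arrest, rose from 39.0, 39.3 and 34.5 CPM to 76.5, 68.5 and 71.1 CPM (log2 0.94 ± 0.18). PLK2, a stress-responsive kinase, and FDXR, a mitochondrial reductase, rose by 1.12 ± 0.21 and 1.04 ± 0.23. In these 4 genes no control library reached a hairpin 7 library. The count was 7 to 10 with 1 library left out and 26 with the block.

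Lysosome and autophagy genes were higher in 13 of 37 cases and lower in 3 (median log2 0.24), against 11.5% and 11.1% of all genes. CTSB, cathepsin B, rose from 58.8 ± 1.43 to 88.2 ± 6.26 CPM and ATG9A, a membrane protein of autophagosomes, from 42.3 ± 2.15 to 59.0 ± 5.96 CPM. ATG5, needed to lipidate autophagosomes, went the other way, from 38.8 ± 3.16 to 28.3 ± 1.27 CPM. The count of higher members fell to 6 without hairpin 7 replicate 1.

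Matrix genes split into many that rose and a few that nearly vanished. Of 31 collagens 10 were higher and 1 lower (median log2 1.41), against 11.5% and 11.1% of all genes. COL11A1, a fibrillar collagen, rose from 27.98, 45.2 and 41.5 CPM to 121, 90.0 and 94.1 CPM, and COL4A4, a basement membrane chain, from 7.63 ± 1.89 to 32.1 ± 14.4 CPM. COL21A1 was the 1 collagen called lower, and with the block 2 were. Among integrins, laminins and their partners 11 of 29 were higher and 0 lower. NID1, nidogen, which links laminin to collagen IV, rose from 17.5, 17.2 and 14.8 CPM to 114, 115 and 122 CPM (log2 2.83 ± 0.24, adjusted p = 3.1e-06). LAMA2, a laminin chain, rose by 2.22 ± 0.28, and the integrin chains ITGA9 and ITGA7 by 1.66 ± 0.29 and 2.30 ± 0.43.

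Of 41 matrix and mesenchymal genes 15 were higher and 3 lower, against 11.5% and 11.1% of all genes, with CILP and ADAMTS2 leading the falls. The counts were 8 and 3 without hairpin 7 replicate 1, and 19 and 5 with the block. CYR61, a matricellular protein, rose from 1.72 ± 0.296 to 6.87 ± 2.84 CPM. DCN, the proteoglycan decorin, rose from 1.20, 0.977 and 0.876 CPM to 12.9, 12.6 and 10.97 CPM (log2 3.57 ± 0.56, adjusted p = 7.1e-04). DCN is also 1 of 9 fibroblast markers, 6 of them tested, whose summed level was 6.89 to 8.44 CPM in control and 34.3 to 55.6 CPM with hairpin 7. Besides DCN, PDGFRB, the platelet-derived growth factor receptor, COL1A1, the type I collagen chain, and LUM, lumican, rose (log2 2.06, 2.53 and 2.55), all 4 also with any 1 library left out. COL3A1 had no counts in control and averaged 0.0960 CPM with hairpin 7, and POSTN was at 0 in all 6 libraries. In bulk RNA a change in the share of cells of a type and a change in RNA per cell cannot be told apart, and their part in the matrix result was not tested.

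**Figure D3:**
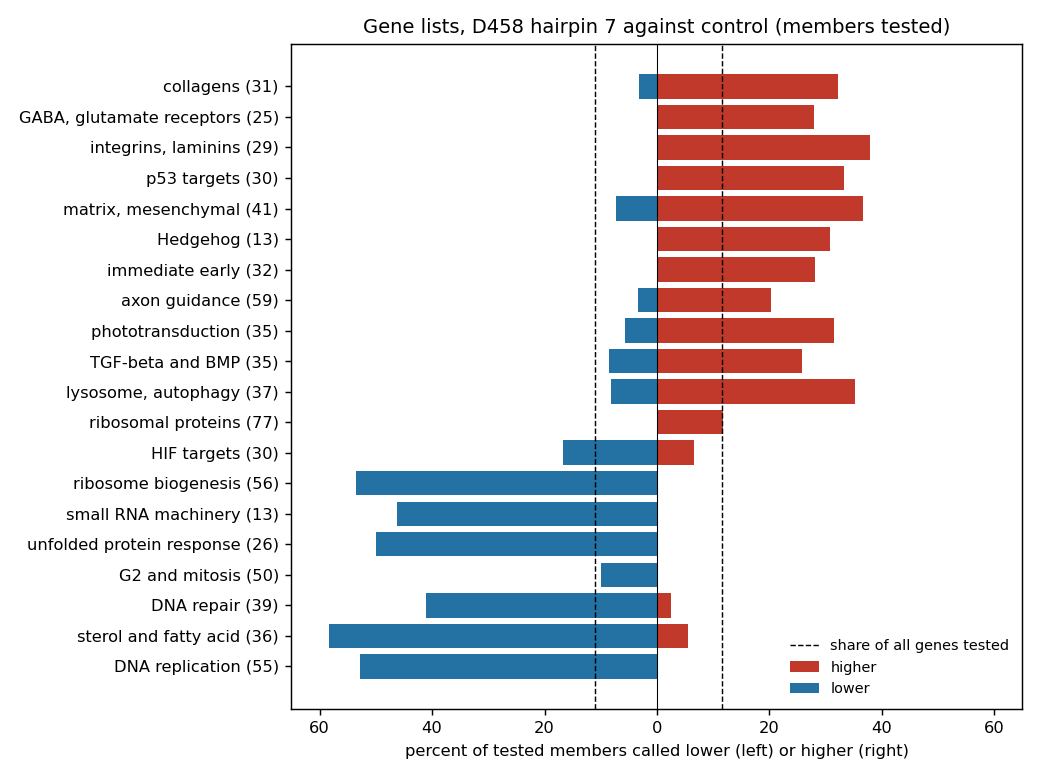
Percent of the tested members of 20 gene lists (vertical axis, number tested in brackets, ordered by median log2 change) called lower (blue, left) or higher (red, right) in hairpin 7 against control. Dashed lines mark the shares over all genes tested, 11.1% lower and 11.5% higher; 21 of 36 sterol and fatty acid genes were lower, and 11 of 29 integrin and laminin genes higher.

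NOG, noggin, the antagonist of bone morphogenetic proteins, rose from 17.8, 16.2 and 14.1 CPM to 97.9, 86.1 and 74.3 CPM (log2 2.42 ± 0.22, adjusted p = 7.7e-06). In its list of TGF-beta and BMP genes 9 of 35 were higher and 3 lower, against 11.5% and 11.1% of all genes. The signal transducers SMAD4 (log2 -0.40 ± 0.08) and SMAD2 (-0.35 ± 0.07) were among the lower ones. The higher count was 2 without hairpin 7 replicate 1 and 14 with the block. Of 13 Hedgehog genes 4 were higher: GLI2 and the receptor SMO, from 5.95, 9.82 and 9.47 CPM to 25.7, 17.3 and 16.6 CPM (log2 1.24 ± 0.20), were called in every alternative. The calls of CDON, a co-receptor, and KIF7, a kinesin of the cilium, ended without hairpin 7 replicate 1 (adjusted p = 0.157 and 0.055).

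Of 59 axon guidance genes 12 were higher and 2 lower, against 11.5% and 11.1% of all genes. Their share called in either direction, 23.7%, was near the 22.6% of all genes. PLXND1, a semaphorin receptor, rose from 25.1 ± 2.49 to 77.6 ± 10.6 CPM (adjusted p = 4.8e-05), EPHA2, an ephrin receptor, from 41.5 ± 10.2 to 105 ± 30.7 CPM, and SEMA4G, a semaphorin, by 1.11 ± 0.21. Of 25 receptors for GABA and glutamate 7 were higher and 0 lower, against the same shares of all genes. GABRB1 (log2 2.43 ± 0.43) and GRM6, the receptor of retinal bipolar cells (1.30 ± 0.25), were among the higher ones. Without hairpin 7 replicate 1 the higher counts of these lists were 5 and 3. Immediate early genes rested on that library: 9 of 32 were higher, against 11.5% of all genes. Without it 0 were higher, and with the block 21, against 20.0% of all genes with the block. EGR1 (log2 1.85 ± 0.46) and ARC (1.77 ± 0.46), both transient responders to stimulation, were among the 9.

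Of 35 phototransduction genes 11 were higher and 2 lower (median log2 0.32), against 11.5% and 11.1% of all genes. PDE6B, a subunit of the rod phosphodiesterase, rose from 15.5, 7.58 and 7.30 CPM to 63.9, 45.1 and 42.1 CPM (log2 2.31 ± 0.36, adjusted p = 6.9e-04). CNGB3, of the cone cyclic nucleotide channel, rose from 2.46 ± 0.372 to 14.2 ± 3.42 CPM, and ABCA4, the retinoid transporter, from 14.3 ± 3.07 to 39.1 ± 14.3 CPM. The higher count was 4 without control replicate 3 and 17 with the block. Among 12 retinal transcription factors 3 were higher, with CRX and the thyroid hormone receptor THRB (log2 1.04 ± 0.23), and 3 lower, with RAX2 (-1.11 ± 0.30). Without hairpin 7 replicate 1 none of the 3 lower calls held (adjusted p = 0.097 for RAX2).

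Of 30 hypoxia-inducible genes 5 were lower and 2 higher, against 11.1% and 11.5% of all genes. Their share called in either direction, 23.3%, was near the 22.6% of all genes. With the block 10 were lower and 3 higher. Beside SLC16A3, the lower ones included EGLN3, a prolyl hydroxylase, which fell from 20.96, 20.04 and 20.2 CPM to 8.31, 9.54 and 9.18 CPM (log2 -1.18 ± 0.17, adjusted p = 3.2e-04), BNIP3, a mitophagy receptor, from 79.1 ± 1.79 to 47.3 ± 2.71 CPM, and SLC2A3, a glucose transporter, from 13.6 ± 0.607 to 6.15 ± 0.648 CPM. Because a hairpin uses the cell's own small RNA machinery, its 13 listed genes were read too. Lower were 6 and higher 0, against 11.1% and 11.5% of all genes. XPO5, the exporter of hairpin precursors, went from 490, 418 and 445 CPM to 365, 345 and 369 CPM (log2 -0.33 ± 0.07, adjusted p = 0.0058). Without hairpin 7 replicate 1 the count of lower genes in this list was 1.

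Genes that neighbour each other on chromosome 22 were lower together, a pattern seen only after the values were known. Positions of 14552 of the tested genes were taken from RefSeq for their order alone. Among genes averaging at least 8 CPM, the first 120 along the chromosome, CECR7 to FBXO7, had a median log2 change of -0.37, with 106 below 0, 65 called lower and 2 higher. The 114 that follow, TIMP3 to RABL2B, had a median of 0.07, with 4 called lower. The boundary was placed where these same log2 changes lay closest to the medians of both stretches. The contrast between the stretches is therefore partly built in. In run pairs 7, 9 and 10 the median of the first stretch was -0.30, -0.44 and -0.33.

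XBP1, SDF2L1, CHEK2, MICAL3, SLC5A1, the replication factor CDC45 (log2 -0.74) and DGCR8, of microRNA processing (-0.38), lie in that first stretch. Its genes averaging at least 8 CPM had quartiles of -0.54 and -0.18 around their median of -0.37. DGCR8 lay between these quartiles. SLC5A1 (-10.5, averaging under 8 CPM), SDF2L1 (-1.26), CHEK2 (-1.11), XBP1 (-0.95), MICAL3 (-0.80) and CDC45 lay below the lower quartile. How much of each fall is the shift of the stretch and how much a change of the single gene was not tested. Without the genes of the stretch, the unfolded protein response kept 11 lower of 24, replication 28 of 54 and repair 15 of 38. Across whole chromosomes, the median was -0.25 on chromosome 18, where 41.5% of 130 genes were lower and where SMAD2 and SMAD4 lie, and -0.18 on chromosome 16, against -0.07 over all 9555 genes used. It was 0.05 on chromosomes 2 and 4. Against the same controls, hairpin 8 gave -0.38 in the stretch on chromosome 22. In D425, which shares no library with these, hairpin 6 against its own control gave -0.05 in that stretch. Its medians on other chromosomes reached -0.36 on chromosome 9, -0.29 on chromosome 20 and -0.18 on chromosome 3. The highest was 0.08, on chromosomes 6 and 10, against -0.01 over all genes used. No cause of these shifts was tested.

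**Figure D4:**
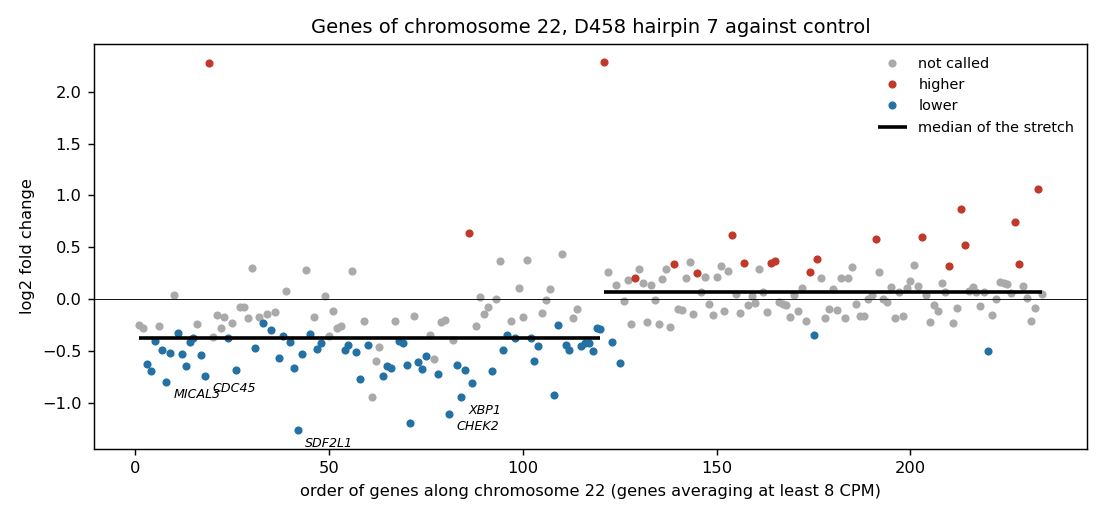
Log2 fold change of hairpin 7 against control (vertical axis) for the 234 genes of chromosome 22 averaging at least 8 CPM, in their order along the chromosome (horizontal axis, rank). Points are genes, and black lines are the medians of the 2 stretches, -0.37 for the first 120 genes and 0.07 for the other 114. The boundary between the stretches was chosen from these same log2 changes.

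The direct comparison with hairpin 8 asked how far the weaker and the stronger knockdown differ. It sets neither hairpin against control, but all 18 libraries, controls included, entered its scaling and its estimate of the spread. EYA2 was at 47.5, 51.9 and 45.1 CPM with hairpin 7 and at 18.2, 23.5 and 19.3 CPM with hairpin 8, which is 28.9% of the control mean. The difference of 1.24 ± 0.27 log2 (95% interval 0.67 to 1.81) was not called in the model of all libraries, where no gene was: edgeR called 0 of 14850 (0%), with 274 genes (1.85%) at an unadjusted p under 0.05 and a smallest adjusted p of 0.951. With the replicate block 1 gene (0.00673%) was called, and it was EYA2 (adjusted p = 0.011). In that fit 738 genes (4.97%) were at an unadjusted p under 0.05. With the 9 D458 libraries alone and no block, 2 genes were called, EYA2 among them (adjusted p = 0.0043).

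DESeq2 called 4 genes between the hairpins. EYA2 was 1 of them (adjusted p = 0.014), and the other three lie outside the rule for naming genes. CMTR1, an RNA cap methyltransferase, was at 179, 165 and 202 CPM with hairpin 7 and at 63.6, 85.4 and 88.6 CPM with hairpin 8, against a control mean of 193 CPM. RAB4A, a small GTPase of endosomes, was at 64.6 ± 1.53 and 84.7 ± 2.46 CPM, and HMHA1, a minor histocompatibility antigen gene, at 12.3 ± 0.379 and 8.34 ± 1.01 CPM. For these 3 genes no hairpin 7 library overlapped a hairpin 8 library.

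Of the genes described above, COL4A5 differed by -0.15 ± 0.32 between hairpin 7 and hairpin 8 (log2), NID1 by -0.35 ± 0.21, WNK2 by 0.01 ± 0.18, XBP1 by 0.10 ± 0.12, CRX by -0.03 ± 0.18 and GADD45A by 0.16 ± 0.18. None of these 6 was called, but no gene was in that model, EYA2 included. The lack of a call therefore cannot show that the hairpins had the same effect on them. Each comparison with control used the same 3 control libraries, so the values against control are not independent. With hairpin 8 against control 3442 genes (23.2%) were called. At 8 CPM or more the median absolute log2 difference was 0.056 between the hairpins and 0.21 between hairpin 7 and control. The 95% interval of a difference between hairpins reached 0.24 to either side at the median gene and further for the genes above that median. FDFT1 was among the genes whose values stood further apart, at -0.54 with hairpin 7 and -0.20 with hairpin 8 against control, and SLC2A3 at -1.14 and -0.52. Neither difference was called in that model, where no gene was.

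Libraries of the same run resembled each other across hairpins. The root mean square log2 difference over 9853 genes was 0.156 to 0.197 between hairpin 7 and hairpin 8 libraries of one run, 0.225 to 0.338 between hairpin 7 libraries of different runs, and 0.410 to 0.555 between hairpin 7 and control of one run. With the 6 hairpin libraries alone and the run as a block, 335 genes were called between the hairpins, with EYA2 at the smallest adjusted p.

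**Figure D5:**
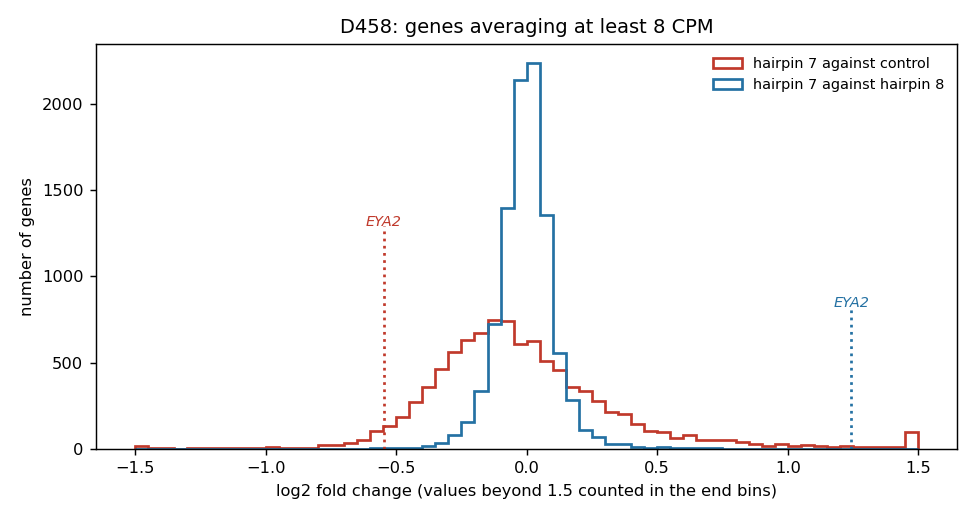
Number of genes (vertical axis) by log2 fold change (horizontal axis) among genes averaging at least 8 CPM in the 6 libraries of hairpin 7 and control, for hairpin 7 against control (red) and hairpin 7 against hairpin 8 (blue). The blue distribution is narrower, with a median absolute difference of 0.056 against 0.21, and EYA2 lies at -0.55 in the first and 1.24 in the second.

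In D425 hairpin 6 against its own control, which shares no library with the D458 groups, 1086 genes were higher (7.31%) and 1015 lower (6.84%). Higher in both lines were 227 genes, 13.2% of the D458 list and 20.9% of the D425 list. Lower in both were 171, 10.4% and 16.8% of the lists. Called in opposite directions were 90 genes higher in D458 and lower in D425, and 53 the other way round. Among the genes described here, WNK2 had a log2 change of -2.91 in D458 and -0.26 in D425, NID1 of 2.83 and 0.59, XBP1 of -0.95 and -0.32, and CRX of 1.12 and -0.10. In D425 none of these 4 was called.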

How the data were processed

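RNA-seq of 18 libraries, 3 per group, was used as deposited gene counts. Per the labels, libraries were stranded and poly(A)-selected. Per the submitters' processing notes, the tools were TopHat2 and Bowtie2, HTSeq, SAMtools, Picard, FastQC and bcl2fastq, with GRCh37/hg19. These sources give no versions, strand setting of counting or treatment of reads with several matches. Symbols are those of the table.

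The counts were fitted here over all 18 libraries, which share 1 estimate of the spread, with edgeR 4.0.16 (robust quasi-likelihood test, TMM scaling) in R 4.3.3. The main model had 1 term per group and none for the pairs. Genes passed edgeR's filter at a minimum count of 10, which 14850 of 25369 did, and a call meant p under 0.05 after Benjamini-Hochberg adjustment across them. Errors of log2 changes are standard errors and those of CPM are SD over 3 libraries. DESeq2 1.42.0, other scalings and filters, fewer libraries and leaving out libraries were alternatives. The code was tested on simulated counts.

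Replicate numbers paired the samples. Deviations from group means in D458 correlated at 0.295 to 0.879 in all 9 pairs of libraries with the same number (mean 0.537, 9853 genes). The 18 pairs with different numbers ran from -0.789 to 0.449, so the ranges overlap. Their mean of -0.242 is partly built in, because deviations from a group mean cancel within the group. The block is therefore given beside a call it changes or a count it moves by over 1.5 times, apart from some of the smallest list counts.

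Genes were named by rule: EYA2 and its network with 5 regulators; the 15 largest called changes each way at 1 CPM or more on average that were shared by the 3 runs; the 8 smallest adjusted p each way; the 5 largest changes in CPM each way; and up to 4 called genes of each list described. Other lists were read and are not described, of the lists described only some of the genes under the rule are printed, and 3 genes are left out. HSPA5, HSP90B1, PDIA6, CRELD2 and CANX were taken for the promoter element, COL3A1 and POSTN as fibroblast markers, and CDC45, DGCR8, CMTR1, RAB4A, HMHA1 and the genes that bound the stretches of chromosome 22 after their values were seen. The comparison and its gene lists were chosen with earlier results of these data known.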

Additional observations from a re-analysis of the deposited data

How the results depend on the processing

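Against control, 3357 genes were called, 1715 higher and 1642 lower. With the replicate block the counts were 5937, 2969 and 2968; with the block in the 9 D458 libraries alone 6178, 3057 and 3121; with the block in the 6 libraries alone 5558, 2805 and 2753. Leaving out 1 of the 6 libraries, or 1 replicate number, gave 1290 to 2901 in all, 766 to 1699 higher and 524 to 1218 lower. The cause was not tested.

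EYA2 against control was called with the block (log2 -0.5517), in the 9 D458 libraries without (-0.5454) and with it (-0.5494), in the 6 libraries without (-0.5391) and with it (-0.5407), and with the block when run pair 2 was left out (-0.5963). Between hairpins 0 genes were called, against 1 with the block, 2 and 6 in the 9 libraries without and with it, 335 in the 6 libraries with it and 4 by DESeq2. There EYA2 was called at log2 1.246, 1.245, 1.248, 1.253 and 1.248.

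Of 135 named genes called, 86 kept their call in every alternative, 33 lost it without hairpin 7 replicate 1, 0 lost it with the block and 0 changed direction. Uncalled genes that changed sign, with their range over libraries left out, were SIX4 (-0.102 to 0.2335, and with the block -0.1003 to 0.2374 over run pairs left out), DACH1 (-0.08705 to 0.2608), DACH2 (-0.01595 with the block and run pair 1 left out), OTX2 (-0.03486 to 0.1569) and NRL (-0.651 to 0.2331, the latter without control replicate 1). The block with a run pair left out, the block in the 9 libraries and the count without chromosome 22 genes were chosen after seeing the data. Depth limits genes near 0 counts, where folds rest on few reads.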
